A study of Homo sapiens with 6 samples.

Results

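The genes described here are 47 genes of the lysosome and of autophagy, taken from the 31831 genes of the count table by their symbols. They comprise 3 genes of the lysosomal membrane, 10 cathepsins and legumain, 6 lysosomal glycosidases, 3 subunits of the proton pump (V-ATPase), 3 transcription factors of the MiT/TFE family, 3 genes of autophagy initiation, 9 genes of phagophore growth and ATG conjugation, 4 genes of the ATG8 family and 6 cargo and mitophagy receptors. All 47 symbols were found, and all 47 genes were among the 17142 that held enough counts to be tested. The cells were HK-2, a cell line established from epithelium of the human proximal tubule, and poly(A) RNA was sequenced from 3 libraries of each of 2 groups. Both groups had been infected with a lentivirus and kept in 30 mM glucose for 72 h. In HG-NC the lentivirus carried the empty vector, and in HG-OE it carried hnRNP-F, an RNA-binding protein that takes part in splicing, from the vector LV5. The promoter that drove the transgene is not given in the sources used here, and mannitol controls were not analysed here. The cells of a group came from parallel wells of a single line, so p-values measure the spread between these libraries, which may be technical.

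Lysosomes are acidic organelles in which hydrolases degrade proteins, glycans and lipids, and the V-ATPase pumps protons into them. In autophagy, a membrane called the phagophore grows around cytoplasmic cargo, receives lipid-bound ATG8 proteins, closes and fuses with lysosomes. Proximal tubule cells take up filtered protein by endocytosis and degrade it in lysosomes, and many genes of both systems are targets of TFEB, TFE3 and MITF.

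Total counts ran from 25507595 to 27888212 in HG-NC and from 28977783 to 29444841 in HG-OE. Reads of HNRNPF, the overexpressed gene, numbered 7733, 8623 and 8692 in HG-NC and 12492, 13155 and 12397 in HG-OE (log2 fold change 0.49, SE 0.038, adjusted p = 2.36e-07, edgeR quasi-likelihood test). This is 1.40 times the HG-NC level, below the study's own threshold of a 2-fold change. The paper reports a rise of this gene by RT-qPCR. It lists the same gene ID for the transgene of these cells and for that of its mouse podocytes. How far reads of the transgene were counted under human HNRNPF was not tested, so 1.40 may not measure the degree of overexpression. Of 12 markers of proximal tubule and renal epithelium, 5 or 6 reached 100 counts in each library, with 11953 to 18291 counts of PAX8, a marker of the renal lineage. Among markers of differentiated proximal tubule, LRP2, CUBN, AQP1 and SLC34A1 did not exceed 23 counts in any library, GGT1 did not exceed 42 and ANPEP 54, and SLC5A2 had 73 to 127. HG-OE replicate 3 stood apart from the other HG-OE libraries, with 34.3 on the second principal component against -19.4 and -19.7. The 8 liver markers summed to 660 CPM (counts normalized to library size) in it, to 460 and 462 CPM in the other HG-OE libraries and to 265 to 275 CPM in HG-NC. Most of this sum was SERPINA1, which was not higher in HG-OE replicate 3 (11560 counts) than in HG-OE replicates 1 and 2 (13250 and 13347). ALB had 4359 counts in HG-OE replicate 3 and at most 78 in any other library, and FGB had 994 there, 124 and 134 in the other HG-OE libraries and 24 to 55 in HG-NC. The 8 squamous epithelium markers summed to 1645 counts in it and to 1 to 5 in the others. The 7 macrophage and leukocyte markers summed to 18.4 CPM in it and to 7.63 to 9.75 CPM in the others, of which CD14 gave 428 counts, while the defining leukocyte gene PTPRC had at most 2 counts in any library. The part of this RNA in the values of the lysosome and autophagy genes was not tested, so values without this library are given where they differ. For 40 of the 47 genes, HG-OE replicate 3 lay within 10% of the mean of the other HG-OE libraries, and its ratio to that mean ran from 0.80 for CTSK to 1.88 for ULK2. It lay above both of those libraries for 17 genes, below both for 22 and between them for 8.

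Lysosome and autophagy genes changed in both directions with hnRNP-F, and the changes were small. Of the 47 genes, 17 were called higher and 14 lower with hnRNP-F (edgeR, adjusted p under 0.05), and 16 were not called. The called shares, 36.2% higher and 29.8% lower, stood beside 26.3% and 25.5% of all genes tested and beside 30.1% and 31.7% of the 12365 genes with a mean of at least 100 counts. Calls in either direction were thus about as common as among other well-counted genes, and this difference was not tested. The groups did not overlap for 32 of the 47 genes, while this held for 59.2% of all genes. None of the 47 was called with a 2-fold change, the threshold of the study, which 5.83% of all genes passed. When tested against a fold of 1.2, 6 were higher and 6 lower (12.6% and 11.6% of all genes). The median log2 fold change was 0.0049, that of all genes tested was 0.016, and single genes ran from -0.59 for ULK2 to 0.92 for CTSK. Without HG-OE replicate 3, 19 were higher and 16 lower. In bulk RNA, a change per cell and a change in the share of cells cannot be told apart.

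**Figure D1:**
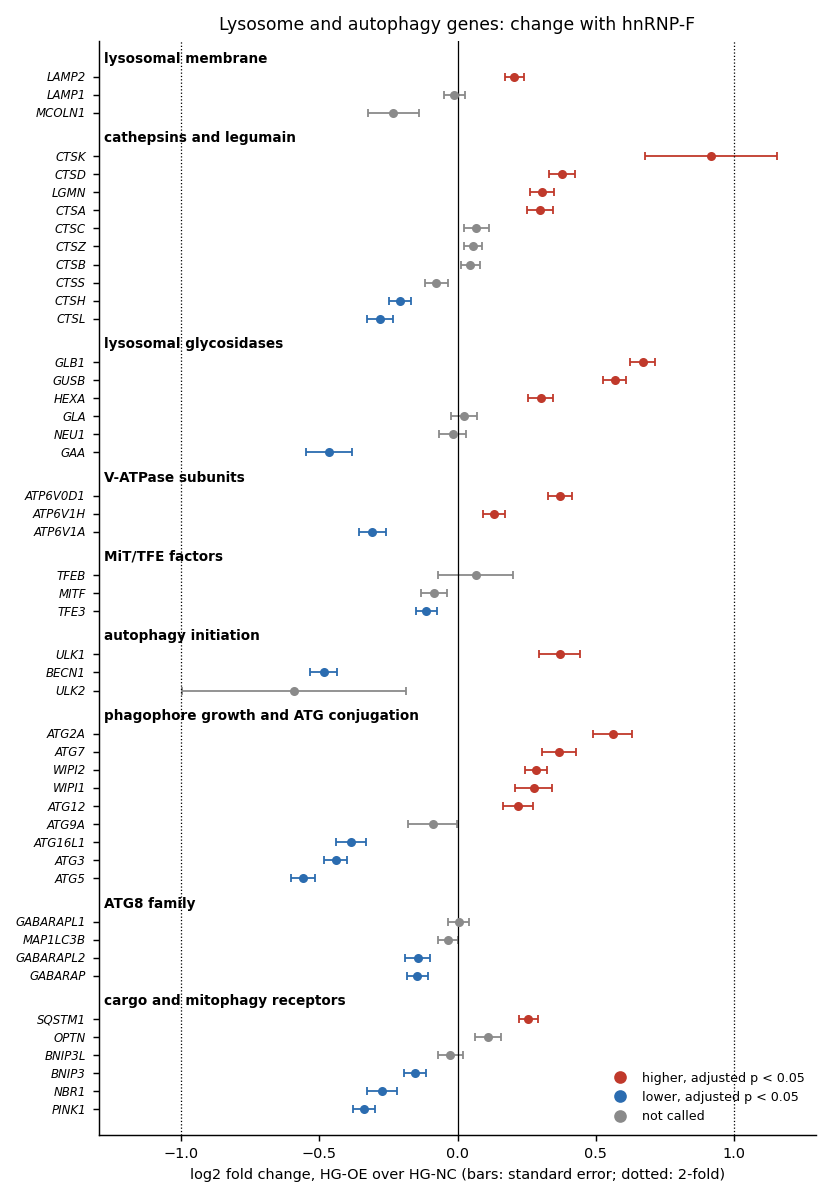
Log2 fold change of HG-OE over HG-NC for each of the 47 genes, by role, with its standard error as a bar (n = 3 libraries per group); red and blue points were called higher and lower at an adjusted p under 0.05, and dotted lines mark a 2-fold change. Higher and lower genes stand side by side in most roles, and no called gene reaches a dotted line.

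The lysosomal and autophagy genes were also counted apart. Of the 22 genes of the lysosome (membrane, proteases, glycosidases and V-ATPase), 10 were higher and 4 lower (45.5% and 18.2%), with a median log2 fold change of 0.062. Of the 22 autophagy genes, 7 were higher and 9 lower (31.8% and 40.9%), with a median of -0.062. These shares stand beside the 30.1% higher and 31.7% lower of well-counted genes. Both medians lay well inside the middle 50% of all genes, which ran from -0.26 to 0.29, and the difference between the sets was not tested.

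The most abundant transcripts per length, as FPKM (fragments normalized to gene length and library size), were GABARAP with a mean of 81.9 over the 6 libraries, SQSTM1 with 78.9, LAMP1 with 64.9, CTSD with 60.1 and CTSB with 59.7. The order of GABARAP and SQSTM1 differed between groups. GABARAP stood at 86.6 ± 2.07 FPKM and SQSTM1 at 72.5 ± 1.21 FPKM in HG-NC, against 77.2 ± 1.83 and 85.3 ± 1.76 FPKM in HG-OE (mean ± SD, n = 3). The next 3 changed order as well, with CTSD the lowest of them in HG-NC (52.7 ± 2.31 FPKM) and the highest in HG-OE (67.6 ± 3.86 FPKM). At the bottom were ULK2 with 0.085 FPKM, CTSK with 0.18 and TFEB with 1.11. The lengths behind these values, recovered from the counts, ran from 2.18 kb for GABARAP to 27.9 kb for CTSC, so the order by FPKM also depends on the gene length that the authors used.

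Among the genes of the lysosomal membrane, 1 of 3 changed. LAMP1, a glycoprotein that lines the inner face of the membrane (chromosome 13, 113297239 to 113323672, GRCh38), stood at 421, 422 and 417 CPM in HG-NC replicates 1, 2 and 3 and at 409, 432 and 407 CPM in HG-OE replicates 1, 2 and 3. The groups overlapped, and the log2 fold change was -0.01 (SE 0.037, adjusted p = 0.819). LAMP2, whose A isoform is the receptor of chaperone-mediated autophagy, rose from 245 ± 2.91 to 283 ± 2.14 CPM, a log2 fold change of 0.21 (adjusted p = 0.000248). MCOLN1, the lysosomal calcium channel TRPML1, gave -0.23 on the log2 scale (SE 0.094, adjusted p = 0.052), and without HG-OE replicate 3 it was -0.31 (adjusted p = 0.00296). Other edgeR settings also called it lower. The adjusted p was 0.028 without HG-NC replicate 1, 0.0384 without a low-count filter and 0.0458 with DESeq2 size factors. MCOLN1 overlaps the gene PNPLA6 on the same strand, whose own mean count was 634% of that of MCOLN1.

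Of the cathepsins and legumain, 4 of 10 rose, 2 fell and 4 did not pass the test. CTSD, the main aspartic protease of lysosomes (chromosome 11, 1752752 to 1764573), was at 319, 340 and 345 CPM in the 3 HG-NC libraries and at 437, 458 and 410 CPM in the 3 HG-OE libraries. The 3 HG-OE libraries all exceeded the 3 HG-NC libraries, and the log2 fold change was 0.38 (SE 0.046, adjusted p = 1.39e-05). The gene RP11-295K3.1 overlaps CTSD on the same strand, with a mean count that was 120% of that of CTSD and a log2 fold change of 0.38, so reads of the overlapping parts cannot be told apart. LGMN, the asparaginyl endopeptidase that processes cathepsins, rose by a log2 fold change of 0.31 (adjusted p = 5.12e-05). CTSA, a carboxypeptidase that also stabilises NEU1 and GLB1 in a complex, rose by a log2 fold change of 0.30 (adjusted p = 0.000149). It overlaps PLTP and NEURL2 on the opposite strand, which had log2 fold changes of 0.94 and 1.13. Their separate mean counts were 2154 and 223.7, beside 12550 for CTSA.

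CTSK, the collagenase of osteoclasts (chromosome 1, 150794880 to 150809577), had the largest log2 fold change of the 47 genes at a low level. It had 26, 27 and 43 counts in HG-NC and 63, 77 and 56 counts in HG-OE, which is 1.02, 0.994 and 1.54 CPM against 2.16, 2.64 and 1.92 CPM. The groups did not overlap, and the log2 fold change was 0.92 (SE 0.24, adjusted p = 0.0056). Without HG-NC replicate 3 it was 1.15 and without HG-OE replicate 3 it was 1.01, both past 2-fold. On log2(FPKM + 1), limma gave 0.13. Its adjusted p was 0.086 after genes under a mean FPKM of 0.1 were removed and 0.047 without that filter. CTSK stood at a mean of 0.13 FPKM in HG-NC and 0.24 FPKM in HG-OE, so the added 1 by itself shrinks this log2 fold change. The Wald test of DESeq2 gave an adjusted p of 0.0245. The cysteine proteases CTSL and CTSH fell, with log2 fold changes of -0.28 (adjusted p = 0.000188) and -0.21 (adjusted p = 0.00081). CTSB, CTSC, CTSZ and CTSS, at -0.08 to 0.07 on the log2 scale, did not pass the test, although CTSB and CTSZ are among the genes with the most counts (means of 19810 and 32470 per library). Without HG-OE replicate 3, CTSZ was called at 0.08 (adjusted p = 0.0289).

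The lysosomal glycosidases, which remove sugars from glycoproteins, glycolipids and glycogen, included the rises with the smallest adjusted p of the 47 genes. GLB1, the beta-galactosidase whose activity is used as a marker of senescent cells (chromosome 3, 32996609 to 33097202), gave 86.8, 82.7 and 87.7 CPM in HG-NC and 129, 142 and 138 CPM in HG-OE. This is 1.59 times the HG-NC level (log2 fold change 0.67, SE 0.046, adjusted p = 7.41e-08). GUSB, the beta-glucuronidase (chromosome 7, 65960684 to 65982215), gave 83.8, 80.4 and 85.7 CPM in HG-NC and 122, 127 and 121 CPM in HG-OE. For both genes the lowest HG-OE library lay far above the highest HG-NC library. The log2 fold change of GUSB was 0.57 (SE 0.042, adjusted p = 1.34e-07), and its 12 annotated pseudogenes, counted separately, summed to a mean count that was 6.76% of that of GUSB. HEXA, the alpha subunit of beta-hexosaminidase A, rose by a log2 fold change of 0.30 (adjusted p = 6.79e-05). It shares its strand and locus with RP11-106M3.2, which had a separate mean count of 977, beside 2013 for HEXA, and a log2 fold change of 0.39.

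GAA, the acid alpha-glucosidase that breaks down glycogen in lysosomes (chromosome 17, 80101533 to 80119881), moved the other way. It was at 33.7, 37.5 and 35.4 CPM in HG-NC and at 23.8, 23.6 and 29.8 CPM in HG-OE, so that HG-OE replicate 3 lay above its group but below every HG-NC library. The log2 fold change was -0.46 (SE 0.084, adjusted p = 0.000378), and without HG-OE replicate 3 it was -0.58. NEU1, a sialidase (chromosome 6, 31857659 to 31862905), had 126, 133 and 134 CPM in HG-NC and 132, 135 and 120 CPM in HG-OE. These groups overlapped, and neither NEU1 (log2 fold change -0.02, adjusted p = 0.777) nor GLA, the alpha-galactosidase lacking in Fabry disease (0.02, adjusted p = 0.696), passed the test.

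All 3 V-ATPase subunits passed the test, in different directions. ATP6V1A, the catalytic subunit that binds ATP (chromosome 3, 113746770 to 113812056), gave 107, 94.8 and 96.0 CPM in HG-NC and 81.9, 78.0 and 80.4 CPM in HG-OE. Its groups did not overlap, and it fell by 0.31 on the log2 scale (SE 0.050, adjusted p = 0.000161). ATP6V0D1, a subunit of the membrane sector, rose by a log2 fold change of 0.37 (SE 0.044, adjusted p = 9.19e-06). ATP6V1H, a regulatory subunit, rose by 0.13 (adjusted p = 0.0143), a call that was lost in several other settings, with adjusted p from 0.055 without HG-NC replicate 3 to 0.073 without HG-OE replicate 1.

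**Figure D2:**
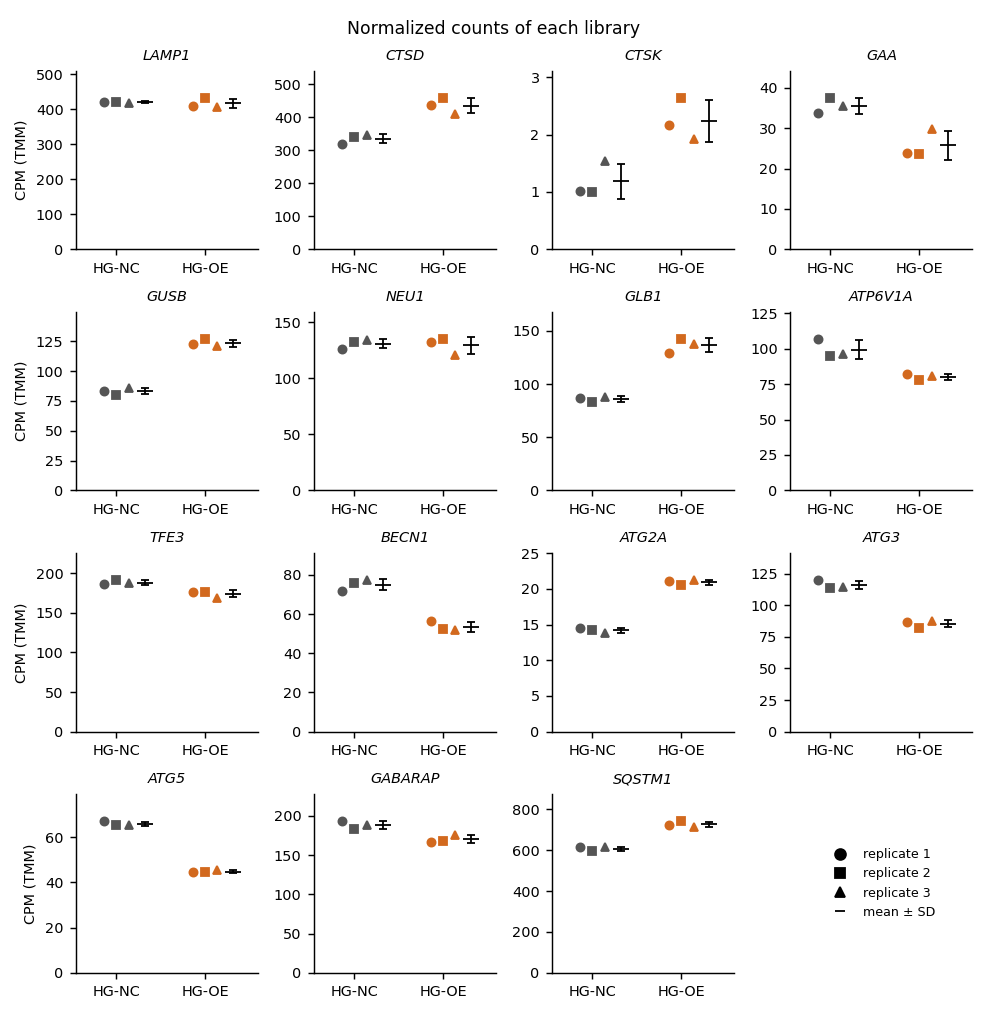
Normalized counts (CPM with TMM factors, axes from 0) of each library for the 15 genes whose values are given per library; symbols are replicates, and the bar beside them is the mean ± SD (n = 3). Replicates of most genes lie close together, less so for CTSK and GAA, and the groups separate for every gene shown but LAMP1 and NEU1.

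The MiT/TFE factors moved little. TFE3 (chromosome X, 49028726 to 49043410) was the most abundant of the 3 per length, with 186, 191 and 187 CPM in HG-NC and 177, 177 and 169 CPM in HG-OE. The groups did not overlap, and TFE3 fell by 0.11 on the log2 scale (SE 0.038, adjusted p = 0.0241). Without HG-NC replicate 2 the adjusted p was 0.081, and without HG-NC replicate 3 it was 0.062. TFEB, with a mean of 236 counts per library, gave a log2 fold change of 0.07 (SE 0.14, adjusted p = 0.708), and MITF gave -0.09 (adjusted p = 0.136).

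The letters CACGTG, the core of the element that these factors bind, were searched on both strands in the RefSeq promoters (GRCh38.p14, 250 bases before to 50 after the start), which covered 37 of the 47 genes. They occurred in 9 of the 37 (24.3%) and in 7.43% of all 27305 promoters, and the longer form TCACGTGA, every match of which also holds CACGTG, occurred in 6 (16.2%) and in 1.04%. The 27305 promoters were not matched to the 37 in gene type or expression, and the difference was not tested. The 5 promoters below show how the motif sits in genes that rose (CTSD, ATP6V0D1), fell (GAA) or were not called (LAMP1, MCOLN1). They are printed on the strand of the gene and outside annotated exons, with the motif in capitals. They lie at chr11:1763965-1764044 on the minus strand for CTSD, chr16:67481182-67481261 on the minus strand for ATP6V0D1, chr17:80101453-80101532 on the plus strand for GAA, chr13:113297039-113297238 on the plus strand for LAMP1 and chr19:7522544-7522623 on the plus strand for MCOLN1.
CTSD: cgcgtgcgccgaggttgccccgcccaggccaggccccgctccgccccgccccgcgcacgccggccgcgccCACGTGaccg
ATP6V0D1: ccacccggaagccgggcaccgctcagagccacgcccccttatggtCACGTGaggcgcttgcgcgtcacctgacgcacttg
GAA: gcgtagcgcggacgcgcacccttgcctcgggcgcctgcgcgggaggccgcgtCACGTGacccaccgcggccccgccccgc
LAMP1: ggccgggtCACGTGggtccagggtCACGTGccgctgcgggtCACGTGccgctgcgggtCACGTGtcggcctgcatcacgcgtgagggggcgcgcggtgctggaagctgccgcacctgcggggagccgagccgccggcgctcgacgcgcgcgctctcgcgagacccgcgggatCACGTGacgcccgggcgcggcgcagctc
MCOLN1: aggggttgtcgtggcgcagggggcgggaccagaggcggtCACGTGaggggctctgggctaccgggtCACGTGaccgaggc

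Genes with the motif did not move in a common direction. Of the 9, 3 were higher (CTSD, CTSA and ATP6V0D1), 3 were lower (GAA, ATG3 and BNIP3) and 3 were not called (LAMP1, MCOLN1 and NEU1). Their median log2 fold change was -0.02. MCOLN1 was close to a call, and several other settings called it lower, among them the fit without HG-OE replicate 3 (-0.31, adjusted p = 0.00296, edgeR). Of the 28 genes whose promoter lacked these letters, 9 were higher and 9 lower, with a median of 0.01. LAMP1 held 6 copies in its promoter, 5 of them in the stretch shown, and its log2 fold change was -0.01. No promoter was in the table for CTSB, CTSK, CTSS, LGMN, HEXA, LAMP2, ATP6V1A, ATP6V1H, BNIP3L and PINK1.

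Autophagy initiation held a rise and a fall. BECN1, a subunit of the lipid kinase complex that marks the growing phagophore (chromosome 17, 42810134 to 42833350), stood at 71.95, 75.7 and 77.3 CPM in HG-NC and at 56.4, 52.4 and 52.0 CPM in HG-OE. The groups were far apart, and BECN1 fell by 0.48 on the log2 scale (SE 0.050, adjusted p = 2.82e-06), to 0.71 of the HG-NC level. PSME3, which overlaps BECN1 on the opposite strand and had a mean count of 5232 beside 1790 for BECN1, gave a log2 fold change of -0.31. ULK1, the kinase that starts autophagy, rose by a log2 fold change of 0.37 (SE 0.075, adjusted p = 0.000937). Its paralog ULK2 had 33, 21 and 38 counts in HG-NC and 8, 26 and 32 counts in HG-OE, and its log2 fold change of -0.59 (SE 0.40, adjusted p = 0.241) did not pass the test. Without HG-OE replicate 3 it was -0.96 (adjusted p = 0.0303).

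Of the genes of phagophore growth and ATG conjugation, 5 of 9 were higher and 3 lower, and genes of the same conjugation steps moved apart. ATG5, which joins ATG12 and ATG16L1 in the complex that attaches ATG8 proteins to lipid (chromosome 6, 106045423 to 106325791), gave 67.0, 65.4 and 65.5 CPM in HG-NC and 44.4, 44.6 and 45.3 CPM in HG-OE. The libraries of a group lay close together and the groups far apart, and ATG5 fell by 0.56 on the log2 scale (SE 0.045, adjusted p = 2.91e-07). ATG16L1 fell by 0.39 (adjusted p = 4.61e-05), whereas ATG12, which is covalently bound to ATG5, rose by a log2 fold change of 0.22 (adjusted p = 0.00352). ATG3, the enzyme that passes ATG8 proteins to lipid (chromosome 3, 112532510 to 112562046), gave 120, 114 and 115 CPM in HG-NC and 87.1, 82.3 and 87.2 CPM in HG-OE. Every HG-OE library lay below every HG-NC library, and ATG3 fell by 0.44 on the log2 scale (SE 0.042, adjusted p = 1.54e-06). ATG7, which activates both ATG12 and the ATG8 proteins upstream of ATG3, rose by a log2 fold change of 0.37 (adjusted p = 0.000196). ATG3, ATG7 and ATG12 overlap genes on the opposite strand (SLC35A5, VGLL4 and AP3S1), which had log2 fold changes of -0.44, 0.30 and 0.28. The paper describes strand-specific libraries, but whether the counting used strand is not given in the sources used here.

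ATG2A, a protein that transfers lipids into the phagophore (chromosome 11, 64894546 to 64917209), gave 14.6, 14.2 and 13.8 CPM in HG-NC and 21.1, 20.5 and 21.2 CPM in HG-OE. The groups did not overlap, and the log2 fold change was 0.56 (SE 0.071, adjusted p = 1.74e-05). The phosphoinositide-binding proteins WIPI1 and WIPI2, which mark the phagophore, rose by log2 fold changes of 0.28 (adjusted p = 0.00308) and 0.28 (adjusted p = 4.51e-05). ATG9A, a lipid scramblase of vesicles that seed the phagophore, gave -0.09 (adjusted p = 0.424), and RP11-803J6.1, which overlaps it on the same strand, had a mean count of 1292 beside 398 for ATG9A.

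Of the ATG8 family, 2 of 4 fell and none rose. GABARAP (chromosome 17, 7240008 to 7242449) stood at 193, 184 and 189 CPM in HG-NC and at 167, 168 and 176 CPM in HG-OE. The groups did not overlap, and GABARAP fell by 0.15 on the log2 scale (SE 0.040, adjusted p = 0.00721). GABARAPL2 fell by 0.14 (adjusted p = 0.0159), and without HG-NC replicate 1 its adjusted p was 0.063. MAP1LC3B, whose lipid-bound protein is the usual marker of autophagosomes, went from 241 ± 2.48 to 235 ± 4.93 CPM (log2 fold change -0.03, SE 0.036, adjusted p = 0.458). GABARAPL1 gave 0.0049 (adjusted p = 0.924). RNA counts give no measure of lipidation or of autophagic flux.

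Of the cargo and mitophagy receptors, SQSTM1 rose while NBR1, BNIP3 and PINK1 fell. SQSTM1, the ubiquitin-binding receptor p62 (chromosome 5, 179806398 to 179838078), stood at 614, 597 and 614 CPM in HG-NC and at 724, 742 and 714 CPM in HG-OE. The groups did not overlap, and the log2 fold change was 0.26 (SE 0.034, adjusted p = 3.27e-05). It overlaps MGAT4B on the opposite strand, which had a separate mean count of 6509, beside 18770 for SQSTM1, and a log2 fold change of 0.94. NBR1, a receptor that acts together with SQSTM1, fell by 0.27 on the log2 scale (adjusted p = 0.000847). PINK1, the kinase that marks damaged mitochondria, fell by 0.34 (SE 0.040, adjusted p = 1.07e-05), and its antisense gene PINK1-AS, which had a mean count of 2162 beside 2635 for PINK1, gave a log2 fold change of -0.18. The mitophagy receptor BNIP3 fell by 0.15 (adjusted p = 0.00584). Its paralog BNIP3L (-0.03, adjusted p = 0.658) and OPTN, a receptor for ubiquitin on mitochondria (0.11, adjusted p = 0.0679), did not pass the test. Without HG-OE replicate 3, OPTN was at 0.15 (adjusted p = 0.00258). OPTN was also called without HG-NC replicate 1 (adjusted p = 0.047) and with at least 10 counts required in every library (adjusted p = 0.0482).

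Most called genes shared their direction with the genes around them on the chromosome, as most called genes of the whole table did. Neighbours were the other genes within 10 Mb with a mean of at least 100 counts, and their median log2 fold change was taken. Of the 31 called genes, 26 (83.9%) had neighbours whose median had the same sign, against 73.4% of all 8830 called genes with neighbours. Neighbours of SQSTM1 had a median of 0.48 (81 genes) and those of ATG7 one of 0.45, and the genes differed from them by -0.22 and -0.08, the reverse of their own sign. For ATG5, ATG3 and ATP6V1A the neighbours were at -0.28, -0.26 and -0.24, and the genes differed from them by -0.28, -0.18 and -0.06. GLB1, whose neighbours were at 0.34, stood 0.33 above them. GUSB (0.49 above), CTSD (0.30 above) and ATP6V0D1 (0.32 above) had neighbours near 0.08, 0.08 and 0.05. WIPI1 went against its neighbours, which were at -0.24. The part of a regional change in these values was not tested.

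**Figure D3:**
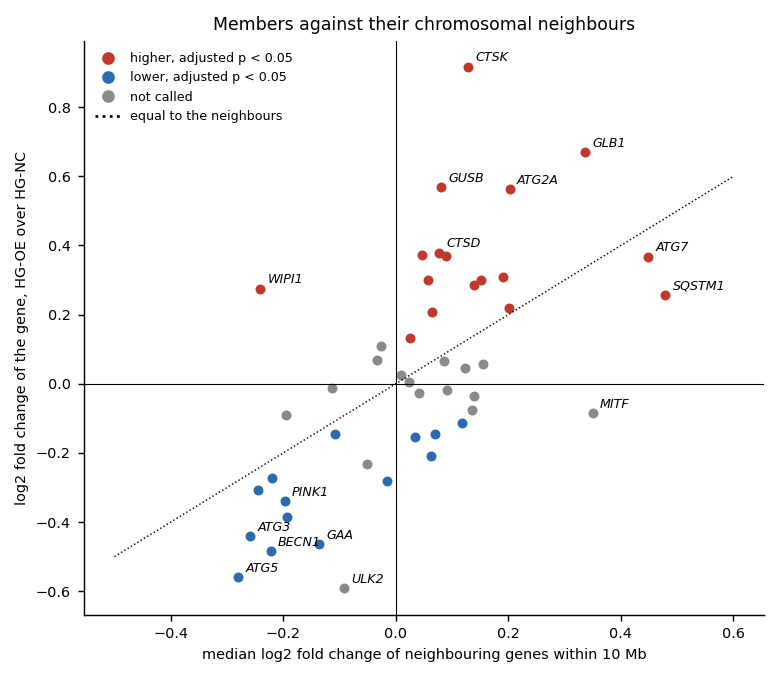
Log2 fold change of each of the 47 genes against the median log2 fold change of its neighbours within 10 Mb, coloured by call; on the dotted line a gene equals its neighbours. Among the called genes 26 of 31 share the sign of their neighbours, and SQSTM1 and ATG7 lie below the line.

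Other genes of the pathway were taken from 4 lists with 121 genes, of which 115 were tested. Of these, 42 were higher and 26 lower (36.5% and 22.6%), with a median log2 fold change of 0.026. These shares stand beside 26.3% higher and 25.5% lower of all genes tested. They also stand beside 30.1% higher and 31.7% lower of genes with a mean of at least 100 counts, and the differences were not tested. GALC and MAP1LC3A, which were not tested, had 60 and 31 counts in HG-OE replicate 3 and at most 1 elsewhere.

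Among 41 other lysosomal hydrolases and membrane proteins, 21 were higher and 7 lower (51.2% and 17.1%), with a median log2 fold change of 0.15. These shares, and those of the V-ATPase subunits below, stand beside 30.1% higher and 31.7% lower of well-counted genes. The differences were not tested. GM2A, the activator protein that presents the ganglioside GM2 to beta-hexosaminidase A, rose from 17.6 ± 1.32 to 34.3 ± 0.940 CPM (log2 fold change 0.96, adjusted p = 7.87e-08). NPC2, which carries cholesterol inside lysosomes, rose by a log2 fold change of 0.65 (SE 0.039, adjusted p = 2.01e-08). The other V-ATPase subunits, 20 of them tested, divided into 11 higher and 3 lower (55.0% and 15.0%), with a median of 0.13. TCIRG1, the a3 subunit of the membrane sector, rose from 13.4 ± 1.05 to 33.5 ± 4.06 CPM (log2 fold change 1.32, adjusted p = 7.60e-08), which is past 2-fold. Its counterpart ATP6V0A1, the a1 subunit, fell by 0.52 on the log2 scale (adjusted p = 1.39e-06), and ATP6V1C2 fell by 0.51 (adjusted p = 0.0199).

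Among 33 other autophagy genes, 5 were higher and 10 lower (15.2% and 30.3%), with a median log2 fold change of -0.04. The largest called change was a rise at a low level, that of ATG9B, a paralog of ATG9A chosen after its values were seen, which had 17, 15 and 27 counts in HG-NC and 45, 54 and 33 counts in HG-OE (log2 fold change 1.05, SE 0.30, adjusted p = 0.0093). UVRAG, a partner of BECN1, fell from 20.9 ± 0.454 to 13.4 ± 1.22 CPM (log2 fold change -0.63, adjusted p = 2.05e-05). VMP1, a membrane protein of the endoplasmic reticulum needed for phagophore formation, fell from 372 ± 20.1 to 275 ± 12.0 CPM (-0.43, adjusted p = 4.17e-06), and ATG4C, a protease of ATG8 proteins, fell by 0.42 (adjusted p = 0.00295). Of 21 genes that regulate mTORC1 and TFEB at the lysosome, 5 were higher and 6 lower (23.8% and 28.6%). These shares, and those of the other autophagy genes above, stand beside 30.1% higher and 31.7% lower of well-counted genes, and the differences were not tested. RRAGA, a Rag GTPase, rose by a log2 fold change of 0.67 (adjusted p = 1.73e-07), LAMTOR2, a subunit of the Ragulator that anchors it, by 0.54 (adjusted p = 2.99e-07), and TSC2, an inhibitor of mTORC1, by 0.55 (adjusted p = 0.000225).

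**Figure D4:**
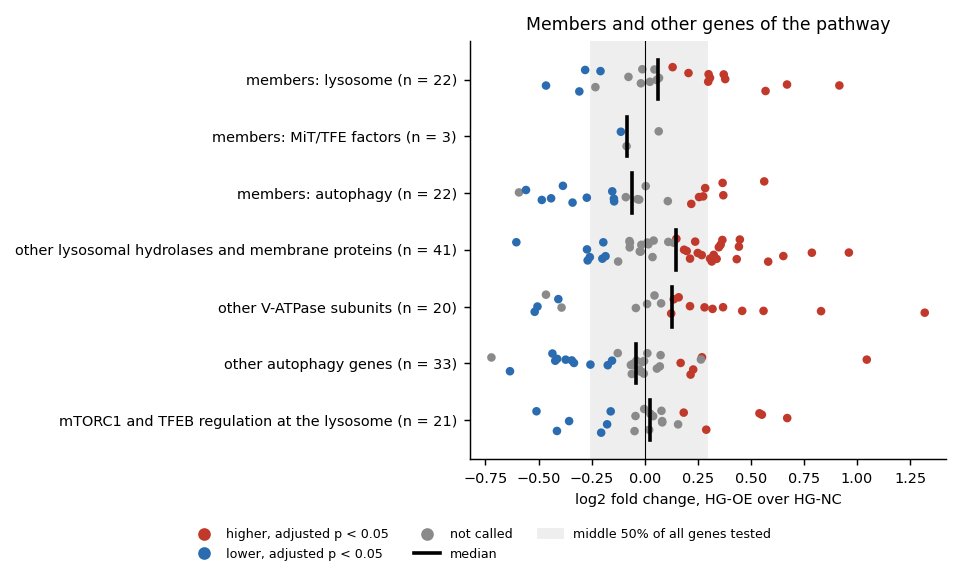
Log2 fold change of the 47 genes, split into lysosome, MiT/TFE factors and autophagy, and of the tested genes of the 4 other lists, with the median of each as a black bar and the middle 50% of all genes tested in grey. The medians of the lysosomal lists and of the other V-ATPase subunits lie above 0 and those of the autophagy lists below it, all inside the grey band.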

How the data were processed

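The authors aligned the reads to GRCh38 with HISAT2 (named in the paper and in the submitters' processing notes) and counted uniquely mapped read pairs per gene. The deposited counts are whole numbers without normalization. The authors also deposited FPKM, computed from the same counts. The paper describes directional libraries in which the second cDNA strand was marked with dUTP. The counting tool, its annotation and its use of strand are not given in the sources used here. The paper names ComBat_seq for batch correction, without stating whether these counts were corrected, and no batch term was fitted.

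Members were matched by symbol. The 47 genes, the pathway lists, the markers and the rules for naming genes were chosen with earlier results of these data known. All genes were fitted together, and the members were read from that table. The count model was fitted with edgeR 4.0.16 under R 4.3.3: TMM normalization, the default low-count filter (17142 of 31831 genes kept), the quasi-likelihood test between the groups and Benjamini-Hochberg adjustment over all genes tested. The biological coefficient of variation was 0.069. Calls needed an adjusted p under 0.05, and the study's further threshold of a 2-fold change was applied separately. SE is the standard error of the log2 fold change. An exact two-sided permutation test of single genes cannot give a p below 0.1 with 3 libraries against 3. Values are given per library for called members with a log2 fold change of at least 0.4 in size and for the member of each role with the highest FPKM, and 3 genes were named per pathway list, those called with the largest changes and a mean of at least 100 counts, of which 1 is not reported here.

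Totals of 25507595 to 29444841 counts set the precision. A count of 0 allows up to 3 counts, for counting error only. Alternatives were DESeq2 1.42.0 (Wald test, and its size factors in edgeR) and limma 3.58.1 on log2(FPKM + 1), with and without a filter at a mean FPKM of 0.1. On log2(FPKM + 0.1), limma was run with that filter only. Further alternatives were other low-count filters, a replicate block, glmTreat against a fold of 1.2, each library left out, and the median of neighbouring genes removed. Positions come from GENCODE release 44 on GRCh38. The tests were checked on simulated data.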

Additional observations from a re-analysis of the deposited data

How the results depend on the processing

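Of the 31 called genes, 27 kept their direction and their call in every setting other than glmTreat and the removal of neighbours, and the exceptions were ATP6V1H, CTSK, GABARAPL2 and TFE3. Leaving out each library in turn gave 16 to 19 higher and 13 to 16 lower genes and 0 to 1 gene past 2-fold, which was CTSK without HG-NC replicate 3 or HG-OE replicate 3. Against a fold of 1.2, glmTreat called 6 genes higher and 6 lower, and 16 higher and 8 lower of the other pathway genes. With the median of neighbouring genes removed, the median over the 47 genes was -0.052 and HNRNPF was at 0.39, while ATG7 (-0.082) and SQSTM1 (-0.22) changed sign. The replicate block gave 17 higher and 15 lower genes, with MCOLN1 added to the calls (-0.23, adjusted p = 0.027). Deviations from the group mean correlated at -0.027, 0.030 and -0.001 between same-numbered libraries. With 3 libraries per group, and HG-OE replicate 3 apart from the others, these values cannot decide whether the libraries were paired.

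Among genes that were not called, some changed sign near 0. GABARAPL1 was at -0.0149 without a low-count filter, -0.0051 with DESeq2, -0.0156 with limma on log2(FPKM + 1), with or without the FPKM filter, and -0.0159 on log2(FPKM + 0.1). Leaving out each library in turn, GABARAPL1 ran from -0.0189 to 0.0192, TFEB from -0.079 to 0.16, BNIP3L from -0.060 to 0.0086, LAMP1 from -0.045 to 0.0037 and NEU1 from -0.056 to 0.030. The cause was not tested. With 3 libraries per group, low genes such as ULK2 and CTSK carry the largest errors.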
